A study of Homo sapiens with 12 samples.

Results

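The genes described here encode the centromere, the kinetochore and the spindle assembly checkpoint of human cells. They form a list of 45 symbols, and each was represented by the brightest transcript cluster that the array annotation gives to that gene alone. By this rule 44 of the 45 were measured among the 18417 genes on the array. CENPA, the histone H3 variant of centromeric chromatin, has a cluster annotated to several genes and has no value here.

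Expression was measured in NCCIT, a human embryonal carcinoma line derived from a germ cell tumor, after transfection with siRNA, on 2 Affymetrix gene arrays per condition and 12 arrays in all. In siWDR5 cells the siRNA pool targeted WDR5, a subunit shared by the MLL/COMPASS complexes that methylate lysine 4 of histone H3. In siEED cells it targeted EED, a core subunit of Polycomb repressive complex 2, and in siRNF2 cells RNF2, the ubiquitin ligase of Polycomb repressive complex 1. The siEED+RNF2 cells received both pools, each at the amount used alone, so they had more siRNA and more transfection reagent than the single knockdowns of either factor, with no control matched for that amount. In siSETD2 cells the target was SETD2, which trimethylates lysine 36 of histone H3, and siNTC cells received a non-targeting siRNA. The labels of the siNTC arrays mark them as re-analysed. Every comparison with siNTC rests on the same 2 siNTC arrays, and nothing in the labels says that replicates were separate cultures, so the p-values measure the spread between arrays, which may be technical.

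As background, the kinetochore is the protein assembly that links each chromosome to spindle microtubules. Centromeric nucleosomes recruit the constitutive centromere network, which carries the KMN network (the NDC80, MIS12 and KNL1 complexes) that binds microtubules. Checkpoint kinases and the MAD and BUB proteins load onto kinetochores that lack attachment and hold back the anaphase-promoting complex. Most of these genes are transcribed periodically, with a peak in G2 and mitosis, and are abundant in rapidly dividing cells such as embryonal carcinoma. In a bulk sample, fewer cells in mitosis and less RNA per cell cannot be told apart.

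In siEED+RNF2 the mitotic kinesin CENPE fell to 18.9% of its siNTC level, the kinetochore scaffold KNL1 to 28.8%, the cohesin protector SGO2 to 29.0%, CENPF to 36.5% and CENPC to 37.8%, and in siRNF2 CENPE fell to 36.7%. In siEED+RNF2 17 of the 44 members were called lower and 2 higher, whereas 6.02% of all genes tested were called lower and 5.49% higher. The members were chosen with earlier results of these data known, so these counts beside all genes are a description and not a test. Calls required a limma adjusted p below 0.05 together with a 1.5-fold difference or more. The lower calls did not cover whole complexes, since NDC80 and NUF2 fell while their partner SPC24 had a difference of 0.17, and AURKB, BIRC5 and CDC20 were not called in any condition.

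Values were log2 levels, and array medians lay between 6.29 and 6.36 across all transcript clusters. Replicate arrays correlated at 0.996 to 0.997, compared with at most 0.9952 between arrays of different conditions. Across the 44 members the replicate arrays of a condition differed by a median of 0.07 and by at most 0.30 on the log2 scale. The siRNA targets were left at 43.1% of the siNTC level for WDR5 in siWDR5, 40.8% for EED in siEED, 32.7% for EED in siEED+RNF2 and 29.7% for SETD2 in siSETD2. The RNF2 transcript was not analysed here. Of the 6 measured markers of the labelled cell type, 5 had siNTC levels between 11.03 (SALL4) and 12.9 (TDGF1), whereas TNFRSF8, which encodes the embryonal carcinoma antigen CD30, was at 7.10. The 12 differentiation markers ranged from 4.42 for PAX6 to 9.17 for the smooth muscle actin ACTG2, with HAND1 at 7.28 and NES at 7.22. In siEED+RNF2, 6 of 6 measured pluripotency markers lay below siNTC by 0.05 to 0.46, which missed the fold limit, and 4 of them passed an unadjusted p under 0.05 in limma. Of all 18417 genes, 4669 were lower at that p. In siEED 6 of 6 markers also lay below siNTC, 5 of them at that p, and in siRNF2 5 of 6 did, 3 of them at that p. POU5F1 and NANOG were listed too but had no value.

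**Figure D1:**
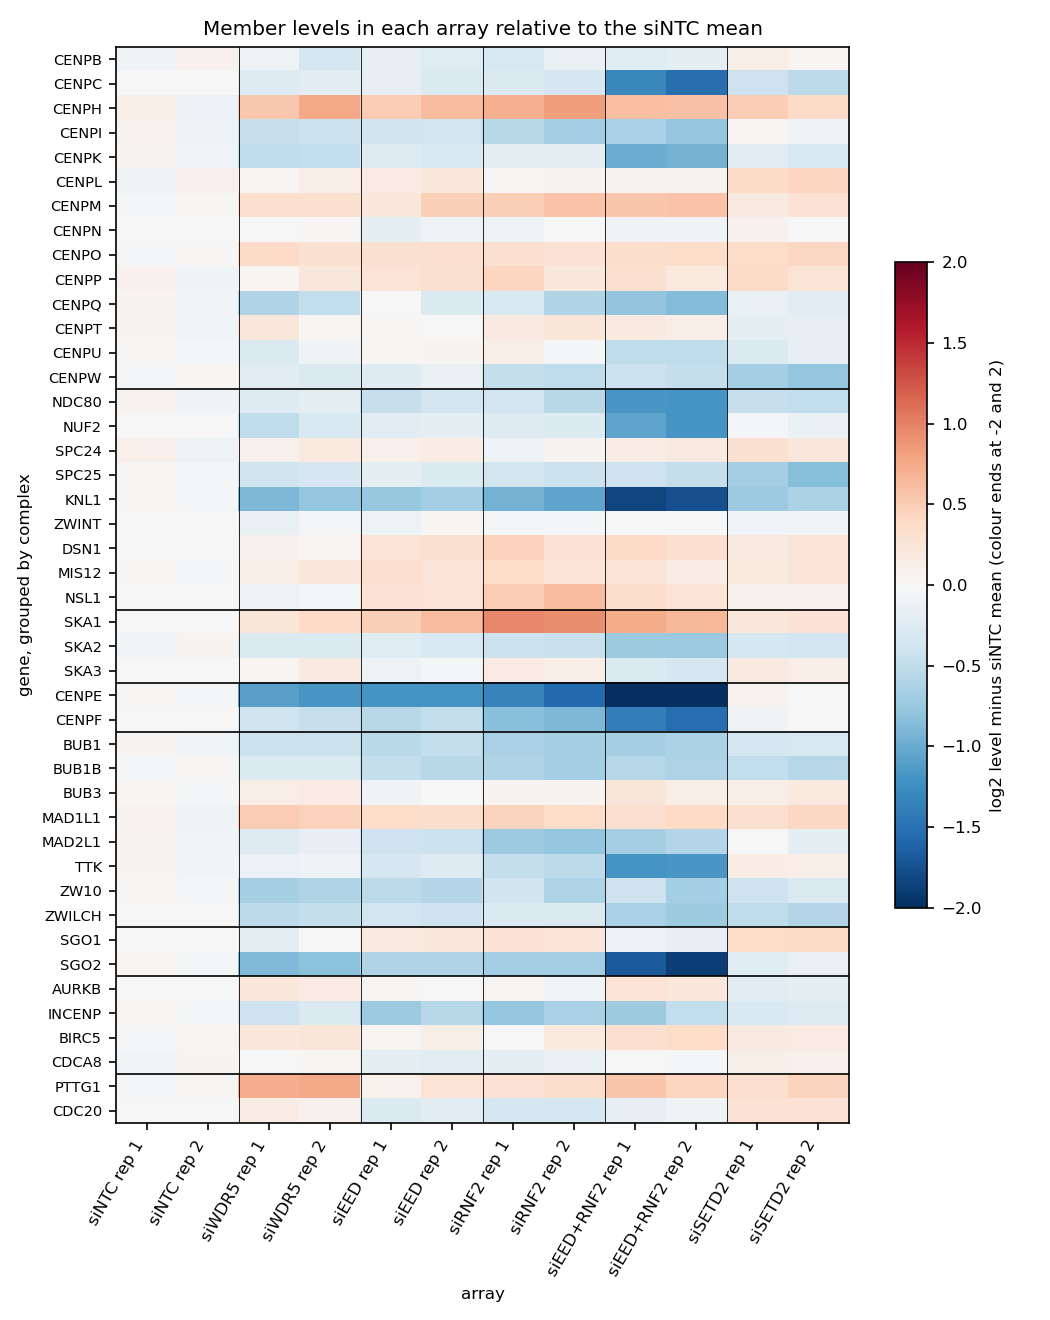
Log2 level of each of the 44 members in each of the 12 arrays minus the mean of the 2 siNTC arrays, with genes in rows grouped by complex (horizontal lines) and arrays in columns. Blue is below and red above siNTC, the colour scale ends at -2 and 2, and the cells of CENPE, KNL1 and SGO2 in the siEED+RNF2 arrays are darker blue than all others.

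Promoter windows were examined because many genes of G2 and mitosis share a pair of promoter elements, the cell cycle genes homology region and the CCAAT box bound by NF-Y. The homology region was searched as TTTGAA or its complement TTCAAA, and the CCAAT box as CCAAT or its complement ATTGG, on both strands of 300-base windows from RefSeq (GRCh38.p14) that reach from 250 bases before to 50 bases after a start site. Each motif was counted on its own, and matches of different motifs may share letters. Of the 45 windows of members, 18 (40.0%) held the homology region motif, compared with 15.2% of all 35116 windows. A CCAAT box was found in 30 of the 45 (66.7%), compared with 34.6% of all windows, and both motifs in 12 (26.7%), compared with 5.9%. These windows belong to 38 members, and 17 members held the homology region motif in at least 1 window, 25 the CCAAT box and 11 both. By call in siEED+RNF2, the homology region motif was held by 7 of the 15 members called lower (46.7%) and 8 of the 21 not called (38.1%). The CCAAT box was held by 10 of 15 and 14 of 21, which is 66.7% in both.

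Windows are shown for 4 members that fell in siEED+RNF2 and for CDC20, which was not called in any comparison, with the motif letters in capitals and coordinates on GRCh38.p14. CENPE, the member with the largest fall, lies on the minus strand (chr4:103198294-103198593) and holds neither motif. CENPF (chr1:214602945-214603244, plus strand) holds 4 CCAAT matches and 1 homology region motif. CENPC (chr4:67545454-67545753, minus strand) holds 2 and 1. NUF2 (chr1:163321704-163322003, plus strand) holds the homology region motif alone, just downstream of the start. CDC20 (chr1:43358731-43359030, plus strand) holds 2 of each.
CENPE: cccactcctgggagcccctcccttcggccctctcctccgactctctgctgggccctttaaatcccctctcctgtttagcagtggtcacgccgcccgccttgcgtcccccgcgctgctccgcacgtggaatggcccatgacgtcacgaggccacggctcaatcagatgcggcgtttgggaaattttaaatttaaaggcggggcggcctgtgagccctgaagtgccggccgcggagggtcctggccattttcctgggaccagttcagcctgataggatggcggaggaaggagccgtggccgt
CENPF: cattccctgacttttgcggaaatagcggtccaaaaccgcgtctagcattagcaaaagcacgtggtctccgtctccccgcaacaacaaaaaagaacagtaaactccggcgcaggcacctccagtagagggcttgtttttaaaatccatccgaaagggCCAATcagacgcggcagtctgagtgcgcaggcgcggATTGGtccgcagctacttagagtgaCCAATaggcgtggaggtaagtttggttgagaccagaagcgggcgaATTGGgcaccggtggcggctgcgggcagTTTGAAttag
CENPC: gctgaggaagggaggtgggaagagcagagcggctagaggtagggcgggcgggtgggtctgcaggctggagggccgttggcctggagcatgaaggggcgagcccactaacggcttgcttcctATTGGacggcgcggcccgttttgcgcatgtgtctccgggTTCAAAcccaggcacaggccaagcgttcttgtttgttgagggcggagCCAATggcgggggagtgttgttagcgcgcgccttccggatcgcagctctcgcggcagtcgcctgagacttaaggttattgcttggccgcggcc
NUF2: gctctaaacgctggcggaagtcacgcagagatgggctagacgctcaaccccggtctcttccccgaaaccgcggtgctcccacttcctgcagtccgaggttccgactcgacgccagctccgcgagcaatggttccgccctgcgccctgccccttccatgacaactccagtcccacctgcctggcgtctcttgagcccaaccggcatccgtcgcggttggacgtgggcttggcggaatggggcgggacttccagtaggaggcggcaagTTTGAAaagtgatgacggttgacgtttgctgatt
CDC20: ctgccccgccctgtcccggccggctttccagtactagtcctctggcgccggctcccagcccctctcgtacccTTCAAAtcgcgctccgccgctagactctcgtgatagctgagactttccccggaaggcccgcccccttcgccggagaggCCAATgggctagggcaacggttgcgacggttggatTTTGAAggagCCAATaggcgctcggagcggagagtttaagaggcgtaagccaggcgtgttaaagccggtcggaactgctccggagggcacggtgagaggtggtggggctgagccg
A match is a run of letters and not evidence of binding, and these data hold no measurement of transcription factor occupancy.

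The fibrous corona is the outermost layer of unattached kinetochores. CENPE and CENPF, the 2 members grouped under it here, both fell in siEED+RNF2, and this grouping does not hold every corona gene. CENPE, the kinesin that carries chromosomes toward the metaphase plate, had log2 levels of 9.35 and 9.30 in the siNTC arrays, 8.24 and 8.16 in siWDR5, 8.14 and 8.14 in siEED, 7.99 and 7.77 in siRNF2, 6.79 and 7.05 in siEED+RNF2, and 9.39 and 9.34 in siSETD2. Both siEED+RNF2 arrays were below every other array, and the siSETD2 arrays overlapped siNTC. The log2 change against siNTC was -1.13 for siWDR5 (limma, SE 0.093, adjusted p = 5.9e-06), -1.18 for siEED (adjusted p = 3.2e-06), -1.44 for siRNF2 (adjusted p = 3.8e-07) and -2.40 in siEED+RNF2 (adjusted p = 7.75e-09). In siSETD2 the difference was 0.04.

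CENPF, a large coiled-coil protein that helps recruit dynein regulators to the kinetochore, had log2 levels of 10.89 and 10.91 in siNTC, 10.51 and 10.44 in siWDR5, 10.35 and 10.43 in siEED, 10.07 and 10.01 in siRNF2, 9.51 and 9.38 in siEED+RNF2, and 10.84 and 10.92 in siSETD2. The arrays of the 4 WDR5 and Polycomb knockdown groups all lay below both siNTC arrays. CENPF fell by 0.86 in siRNF2 and by 1.45 in siEED+RNF2 (limma adjusted p = 1.6e-06 and 2.5e-08), while the differences of -0.43 in siWDR5 and -0.51 in siEED missed the fold limit.

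Of the 9 measured genes of the KMN network and its partner ZWINT, 3 were called lower in siEED+RNF2 and the median difference was 0.00. KNL1, the scaffold that docks the BUB proteins, was called lower in all 5 knockdowns. Its log2 levels were 10.78 and 10.73 in siNTC, 9.87 and 9.99 in siWDR5, 10.00 and 10.08 in siEED, 9.82 and 9.71 in siRNF2, 8.92 and 9.00 in siEED+RNF2, and 10.04 and 10.12 in siSETD2. No knockdown array reached the siNTC range. The change was -1.80 in siEED+RNF2 and -0.995 in siRNF2, and -0.83, -0.72 and -0.68 in siWDR5, siEED and siSETD2 (limma, SE 0.072, adjusted p at most 2.9e-05).

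NDC80 and NUF2 form the microtubule-binding end of the NDC80 complex. NDC80 had log2 levels of 10.24 and 10.10 in siNTC, 9.91 and 9.98 in siWDR5, 9.71 and 9.79 in siEED, 9.78 and 9.61 in siRNF2, 9.00 and 8.99 in siEED+RNF2, and 9.71 and 9.68 in siSETD2. For NUF2 they were 10.59 and 10.58 in siNTC, 10.09 and 10.28 in siWDR5, 10.36 and 10.40 in siEED, 10.33 and 10.31 in siRNF2, 9.53 and 9.41 in siEED+RNF2, and 10.56 and 10.46 in siSETD2. Against siNTC both genes were called in siEED+RNF2, where NDC80 fell by 1.17 and NUF2 by 1.12 (limma adjusted p = 2.5e-07 and 3.7e-07). The opposite end of the complex, which anchors it to the inner kinetochore, did not pass the limits there. SPC24 differed by 0.17, and SPC25 by -0.44. SPC25 was instead called lower in siSETD2, at -0.77 (limma adjusted p = 1.3e-05). The MIS12 complex genes DSN1, MIS12 and NSL1 had differences of 0.35, 0.20 and 0.31 in siEED+RNF2, and ZWINT one of 0.00.

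**Figure D2:**
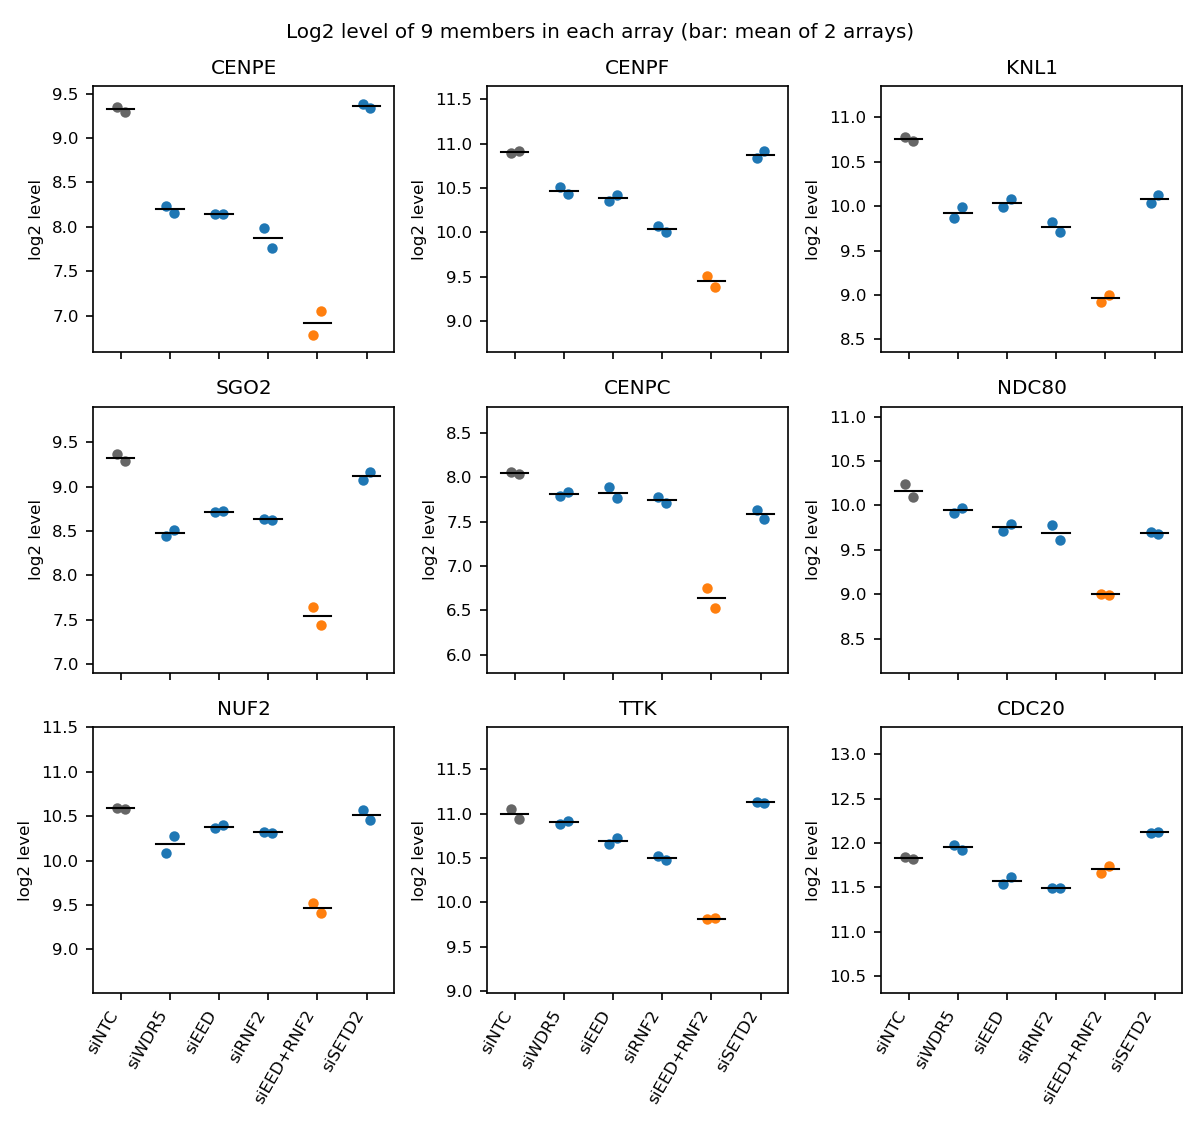
Log2 level (vertical axis, spanning 3 units in each panel) of 9 members in each array, by condition. Points are arrays and bars are means of 2 arrays, with siNTC in grey, siEED+RNF2 in orange and the other knockdowns in blue, and in all panels but that of CDC20 the orange points are the lowest.

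The constitutive centromere network gave calls in both directions. Of its 14 measured genes, 4 were called lower in siEED+RNF2 and 1 higher. CENPC, which bridges the centromeric nucleosome and the MIS12 complex, had log2 levels of 8.06 and 8.03 in siNTC, 7.79 and 7.83 in siWDR5, 7.88 and 7.76 in siEED, 7.78 and 7.71 in siRNF2, 6.75 and 6.53 in siEED+RNF2, and 7.64 and 7.53 in siSETD2. Both siEED+RNF2 arrays lay below every other array, with a change of -1.41 against siNTC (limma, SE 0.081, adjusted p = 1.2e-07). In siEED the difference was -0.22 and in siRNF2 -0.30, neither of which was called.

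CENPH, CENPI and CENPK belong to one subcomplex but did not move together. CENPK had log2 levels of 10.83 and 10.73 in siNTC, 10.28 and 10.30 in siWDR5, 10.53 and 10.48 in siEED, 10.59 and 10.60 in siRNF2, 9.79 and 9.84 in siEED+RNF2, and 10.55 and 10.46 in siSETD2. It fell by 0.97 in siEED+RNF2 (limma adjusted p = 3.4e-07). CENPI fell by 0.63 in siRNF2 and by 0.71 in siEED+RNF2, and the siRNF2 call was lost without siRNF2 replicate 2 or siNTC replicate 1 (-0.56 in both). CENPH had siNTC levels of 9.07 and 8.84. It rose by 0.65 in siWDR5, by 0.77 in siRNF2 and by 0.59 in siEED+RNF2 (limma adjusted p = 0.00036, 6.2e-05 and 0.00040). Its siEED+RNF2 change was close to the fold limit, and it was not called when siNTC replicate 2 was left out (0.48) or when arrays were centred on the gene median (0.51). Its siWDR5 call was lost without siWDR5 replicate 2 (0.53) or siNTC replicate 2 (0.54). CENPH also lay above siNTC in siEED (0.56) and siSETD2 (0.44), under the fold limit, and both siNTC arrays were below every knockdown array. With siSETD2 as reference the CENPH calls were all lost, at 0.21 for siWDR5, 0.33 for siRNF2 and 0.15 for siEED+RNF2. CENPQ, of another subcomplex, fell by 0.82 in siEED+RNF2, and CENPW, a histone fold protein, by 0.72 in siSETD2.

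The SKA complex stabilizes kinetochore attachments to microtubule ends, and its genes gave calls in opposite directions. SKA1 rose from 9.22 and 9.20 in siNTC to 10.17 and 10.14 in siRNF2, a change of 0.94, and to 9.96 and 9.87 in siEED+RNF2, a change of 0.71 (limma adjusted p = 1.7e-06 and 1.3e-05). SKA2 fell by 0.72 in siEED+RNF2 at its brightest cluster. A second, dimmer cluster of SKA2 differed by only -0.18, and the mean of the 2 clusters, at -0.45, was not called. SKA3 had a difference of -0.30.

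Of the 8 spindle checkpoint genes, 5 were called lower in siEED+RNF2 and 3 in siRNF2. TTK, the kinase that starts checkpoint signaling, had log2 levels of 11.05 and 10.93 in siNTC, 10.88 and 10.92 in siWDR5, 10.65 and 10.73 in siEED, 10.52 and 10.47 in siRNF2, 9.81 and 9.82 in siEED+RNF2, and 11.13 and 11.12 in siSETD2. Its siEED+RNF2 change was -1.17 (limma adjusted p = 7.3e-08), and its siRNF2 difference of -0.49 was not called. BUB1, BUB1B and MAD2L1 behaved otherwise, with falls of similar size in siRNF2 and siEED+RNF2. BUB1 fell by 0.66 and 0.65, BUB1B by 0.64 and 0.60, and MAD2L1 by 0.75 and 0.62. The calls of BUB1B and MAD2L1 in siEED+RNF2 were lost under quantile normalization, at -0.53 and -0.58, and that of BUB1B also without siEED+RNF2 replicate 2 or siNTC replicate 2 (-0.57 in both). MAD2L1 lost its siEED+RNF2 call without siEED+RNF2 replicate 1 (-0.58) or siNTC replicate 1 (-0.56), and the siRNF2 call of BUB1B was lost when arrays were quantile normalized (-0.58).

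ZWILCH and ZW10 belong to the complex that brings dynein to kinetochores. ZWILCH fell by 0.68 in siEED+RNF2, and ZW10 was called in siWDR5, where it fell by 0.64 (limma adjusted p = 0.00036), with a difference of -0.54 in siEED+RNF2. BUB3, at 0.19, and MAD1L1, at 0.36, were not called in siEED+RNF2.

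The shugoshins protect centromeric cohesin, and of the pair only SGO2 was called against siNTC. SGO2 had log2 levels of 9.36 and 9.29 in siNTC, 8.45 and 8.51 in siWDR5, 8.72 and 8.72 in siEED, 8.64 and 8.63 in siRNF2, 7.64 and 7.44 in siEED+RNF2, and 9.08 and 9.17 in siSETD2. It fell by 1.78 in siEED+RNF2, and by 0.85, 0.61 and 0.69 after knockdown of WDR5, EED and RNF2 alone (limma, SE 0.074, adjusted p at most 8.0e-05). The siEED call was lost without siNTC replicate 1 (-0.57). SGO1 differed by -0.14 in siEED+RNF2 and by 0.27 in siRNF2, with no call.

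Among the chromosomal passenger complex genes, INCENP, the scaffold of Aurora B, was called lower in the Polycomb knockdowns. It fell by 0.64 for siEED, 0.71 for siRNF2 and 0.60 for both (limma adjusted p = 0.00022, 6.2e-05 and 0.00019). The last of these sat close to the fold limit and was lost without siEED+RNF2 replicate 1 (-0.49) or siNTC replicate 1 (-0.57), and the siEED call without siEED replicate 1 (-0.55). INCENP also lay below siNTC in siWDR5 (-0.35) and siSETD2 (-0.28), under the fold limit. With siSETD2 as reference its Polycomb calls were all lost, at -0.35 for siEED, -0.43 for siRNF2 and -0.32 for siEED+RNF2. The kinase AURKB differed by 0.25 in siEED+RNF2, BIRC5 (survivin) by 0.34 and CDCA8 (borealin) by -0.02. PTTG1, the separase inhibitor securin, rose by 0.75 in siWDR5 (limma adjusted p = 3.5e-05) and differed by 0.49 in siEED+RNF2. CDC20, the activator of the anaphase-promoting complex that the checkpoint restrains, had levels of 11.85 and 11.82 in siNTC and 11.66 and 11.75 in siEED+RNF2, a difference of -0.13.

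Counts by condition differed. In siWDR5, 4 members were called lower, where 3.22% of all genes were, and 2 higher, where 2.8% were. In siEED, 4 were called lower against a background of 2.63%, and none higher by limma against 3.74%. At an unadjusted limma p under 0.05, 11 members and 3695 of all 18417 genes were higher in siEED. In siRNF2, 9 were called lower against 3.81% and 2 higher against 6.37%. In siSETD2, the lower calls were KNL1, CENPW and SPC25, against a background of 3.18%, and none was called higher by limma against 2.64%. At that unadjusted p, 17 members and 3756 of all genes were higher in siSETD2. The median difference over the 44 members was -0.26 in siEED+RNF2, where that over all genes was -0.02, and it was -0.18 in both single Polycomb knockdowns, where all genes gave -0.03 for siEED and -0.04 for siRNF2. In siWDR5 the medians were -0.09 and -0.03, and in siSETD2 0.01 and -0.01.

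Counts near the fold limit moved with the scaling of the arrays. In siEED, the split of lower to higher calls was 3 to 1 when arrays were centred on all clusters, and in siRNF2 it was 7 to 3. Over all genes these splits were 413 to 782 and 558 to 1384, compared with 485 to 688 and 701 to 1174 in the main fit. Centring on the gene median gave more lower calls, with a split of 7 to 0 for siEED, 13 to 2 for siRNF2 and 19 to 1 for the dual knockdown. It shifted all genes as well, to splits of 730 to 502 for siEED, 1253 to 775 for siRNF2 and 1414 to 770 for the dual knockdown. The main fit of the dual knockdown gave 1109 to 1011 over all genes. Centring on all clusters gave the dual knockdown fewer lower calls, with a split of 14 to 3 members and 971 to 1194 over all genes. Under quantile normalization its split was also 14 to 3 members, with 966 to 1191 over all genes. Centring on all clusters ended the calls of SGO2 in siEED, of CENPI and BUB1B in siRNF2 and of INCENP, BUB1B and MAD2L1 in siEED+RNF2, at -0.55 to -0.58. With siSETD2 in place of siNTC as the reference, the shared siNTC arrays are removed. In siEED+RNF2, 11 members were then called lower, with no share over all genes given here. These were CENPC, CENPI, CENPK, CENPQ, NDC80, NUF2, KNL1, CENPE, CENPF, TTK and SGO2. CENPE still differed by -2.45 and SGO2 by -1.58, whereas KNL1 moved to -1.12, BUB1B to -0.07 and ZWILCH to -0.13. KNL1, which was lower in siSETD2 as well, was then not called in siWDR5 (-0.15), siEED (-0.04) or siRNF2 (-0.31).

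A group of 21 members was called in none of the 7 comparisons, with log2 differences from -0.55 to 0.56. They were CENPB, CENPL, CENPM, CENPN, CENPO, CENPP, CENPT, CENPU, SPC24, ZWINT, DSN1, MIS12, NSL1, SKA3, BUB3, MAD1L1, SGO1, AURKB, BIRC5, CDCA8 and CDC20. Several had adjusted p values under 0.05 with folds under the limit. CENPM lay above siNTC in siEED+RNF2 by 0.56 (limma adjusted p = 0.00014) and NSL1 in siRNF2 by the same 0.56 (limma adjusted p = 2.3e-05). CENPU lay below siNTC in siEED+RNF2 by 0.51 (limma adjusted p = 0.00039) and differed by 0.04 in each single knockdown.

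Whether losing both Polycomb factors went beyond losing one was addressed by comparing siEED+RNF2 with each single knockdown, 2 comparisons that do not use siNTC but share the siEED+RNF2 arrays. Against siEED, 10 members were called lower, where 2.75% of all genes were, and none higher by limma, where 0.157% were. At an unadjusted limma p under 0.05, 6 members and 2631 of all 18417 genes were higher. Against siRNF2, 9 were called lower and none higher by limma, with backgrounds of 3.03% and 0.239%. At that unadjusted p, 5 members and 2505 of all genes were higher. Depletion of both factors and the larger amount of siRNA and reagent cannot be told apart in these comparisons. The medians over the members were -0.09 and -0.05, and over all genes 0.03 and 0.02.

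CENPE was lower in siEED+RNF2 by 1.23 than in siEED (limma, difference -1.23, 95% interval -1.43 to -1.02) and by 0.96 than in siRNF2 (difference -0.96, -1.16 to -0.76). For CENPC the differences were -1.18 and -1.10, for SGO2 -1.18 and -1.09, and for KNL1 -1.08 and -0.80. The outer kinetochore pair NUF2 and NDC80 gave -0.91 and -0.85, and -0.76 and -0.70. TTK differed by -0.87 and -0.68, CENPF by -0.94 and -0.59, and CENPK by -0.69 and -0.78. The CENPF difference from siRNF2 was the smallest of these calls, and it was lost under quantile normalization (-0.57), with arrays centred on the gene median (-0.54) and without siRNF2 replicate 1 (-0.56) or siEED+RNF2 replicate 2 (-0.53). CENPQ was called against siEED, at -0.68, and differed from siRNF2 by -0.37. Its call was lost without siEED replicate 1, at -0.55. Checkpoint genes other than TTK were not called in either comparison. BUB1, for example, measured 11.02 and 11.06 in the siEED+RNF2 arrays, compared with 11.04 and 11.03 for siRNF2, a difference of 0.00 with a 95% interval of -0.13 to 0.14.

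The dual change was also set beside the sum of the single changes by an interaction contrast (the siEED+RNF2 change less the changes of both single knockdowns), a test added after the values above were known. Of the 44 members, 5 lay below the sum and 1 above it, where 7.43% and 3.89% of all genes did. CENPC was below the sum by 0.88 (interaction -0.88, limma SE 0.11, adjusted p = 0.00017), with a sum of -0.52 and a dual change of -1.41. NUF2 had an interaction of -0.65 (limma adjusted p = 0.00082), with a sum of -0.47 and a dual change of -1.12. For SKA1 and CENPH, which rose in siRNF2, the dual change of 0.71 and 0.59 was smaller than the sums of 1.49 and 1.34, giving interactions of -0.78 and -0.74. SGO1 had an interaction of -0.61 without being called in either single knockdown or in the dual. INCENP was above the sum, with an interaction of 0.74 (limma adjusted p = 0.0010), as its change was of similar size in siEED, siRNF2 and siEED+RNF2.

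CENPE, KNL1 and CENPF did not depart from the sum by a called amount. For CENPE the sum was -2.62 and the dual change -2.40 (interaction 0.22, 95% interval -0.07 to 0.51, limma adjusted p = 0.24). KNL1 had -1.71 and -1.80, and CENPF -1.38 and -1.45, each with an interaction of -0.08. SGO2, with -1.30 and -1.78, had an interaction of -0.48 (limma adjusted p = 0.0045) that missed the fold limit. BUB1, BUB1B and MAD2L1 had interactions of 0.50, 0.55 and 0.55, also under the fold limit. Centring the arrays on the gene median changed the split of called members to 3 below and 6 above. It moved all genes as well, from 1369 below and 717 above in the main fit to 876 and 1381. The member split was 7 to 1 under quantile normalization (1434 to 685 over all genes). With arrays centred on all clusters it was 6 to 1 (1560 to 584 over all genes). The balance of directions depended on the scaling, for all genes as for the members.

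**Figure D3:**
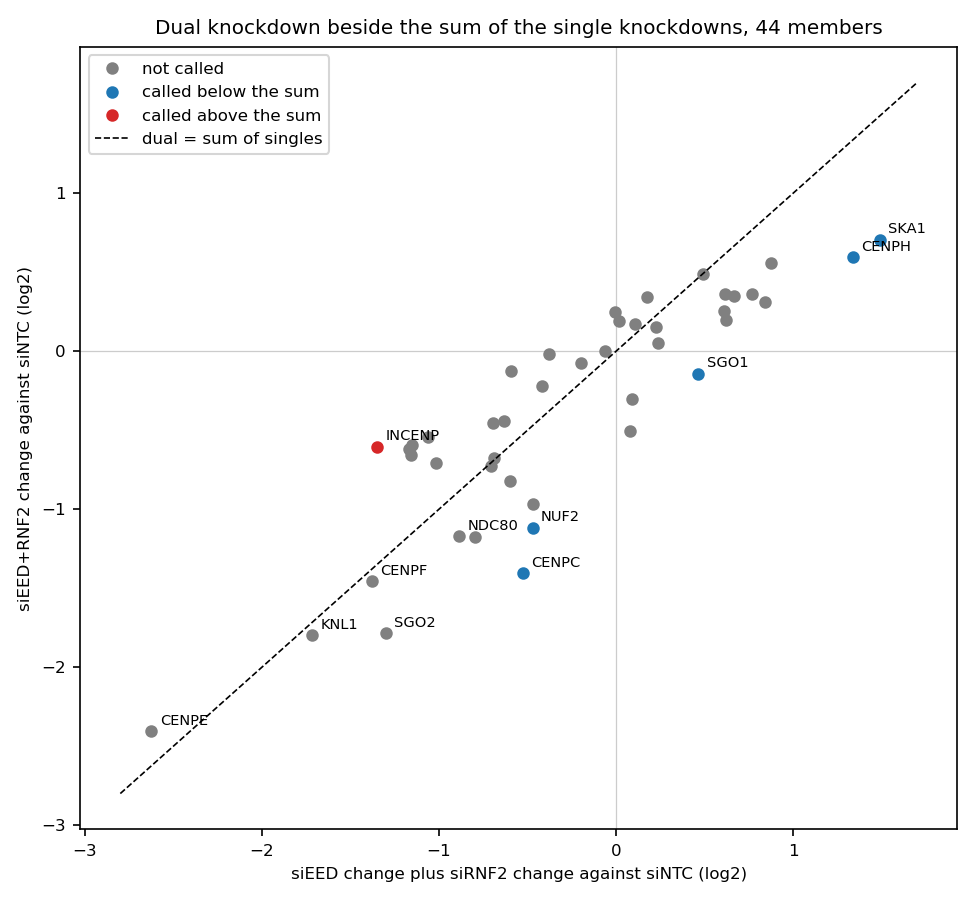
Log2 change in siEED+RNF2 (vertical axis) against the sum of the log2 changes in siEED and siRNF2 (horizontal axis), all relative to siNTC, for the 44 members. The dashed line marks equality, blue points were called below the sum and the red point above it, and CENPE, KNL1 and CENPF lie near the line while CENPC and NUF2 lie below it.

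The members called lower in the dual than in the single knockdowns had longer gene spans than the rest by median. Over the 44 members, the span of the gene in RefSeq, introns included, had a Spearman correlation of -0.65 with the difference between siEED+RNF2 and siEED and of -0.60 with the difference between siEED+RNF2 and siRNF2. Over 18389 genes with a span the same correlations were -0.19 and -0.22. These are descriptions across genes, which share the same arrays and are not independent replicates. The 10 members called lower against siEED had spans from 29.7 to 92.5 kb with a median of 59.7 kb, and the 34 others had a median of 24.1 kb. The longest members were exceptions, since MAD1L1, at 417 kb, differed by 0.00 and -0.04, and CENPP, at 295 kb, by -0.03 and -0.07. Against siNTC the correlation over members was -0.52 in siEED+RNF2 and -0.06 over all genes. It was -0.55 in siWDR5, -0.41 in siSETD2, -0.38 in siEED and -0.37 in siRNF2, beside 0.05, 0.01, 0.05 and 0.07 over all genes. The part of gene length in these differences was not tested. The mean level of a member had a correlation of -0.05 with its siEED+RNF2 change.

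**Figure D4:**
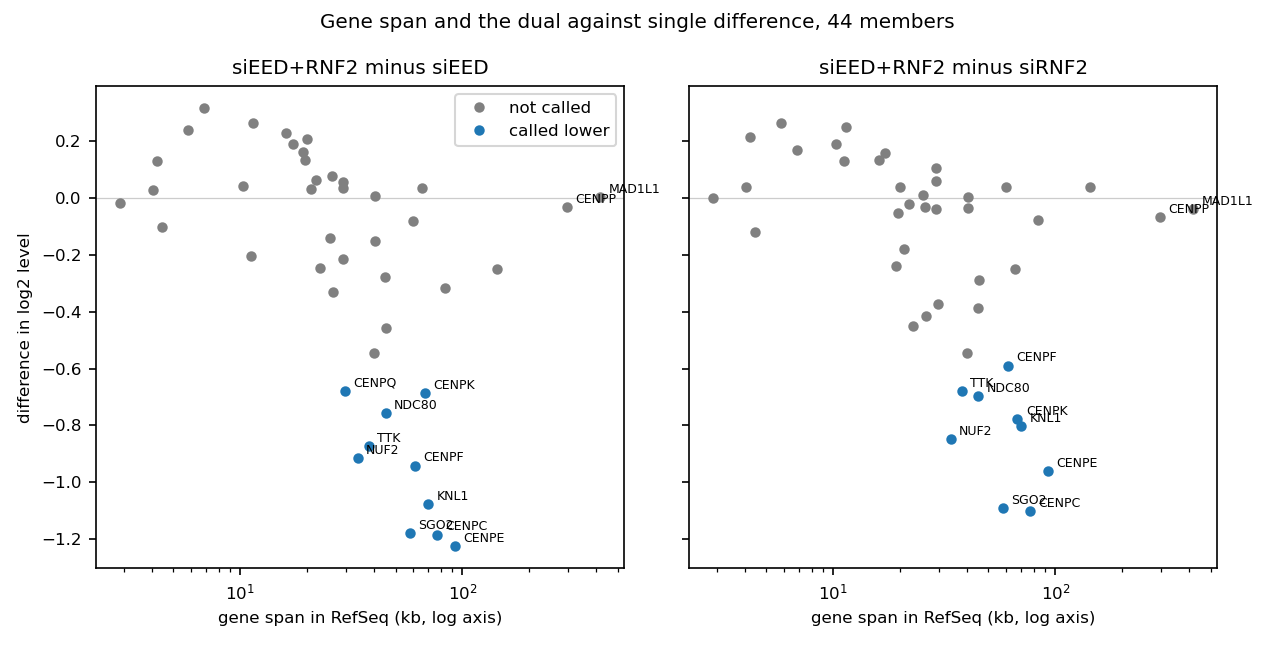
Difference in log2 level between siEED+RNF2 and siEED (left) or siRNF2 (right) against the span of the gene in RefSeq in kb on a log axis, for the 44 members. Blue points were called lower, with spans of 29.7 to 92.5 kb on the left and 33.8 to 92.5 kb on the right, and the longest members, MAD1L1 and CENPP, lie near 0.

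Other mitotic and cell cycle lists, set beside the members in siEED+RNF2 against siNTC, gave medians from -0.69 to 0.08. Of 12 mitotic kinesins, 7 were called lower and the median was -0.69, led by KIF20B at -2.32, KIF14 at -1.68 and KIF18A at -1.58. Of 15 cohesin subunits and regulators, 6 were called lower with a median of -0.43, among them the core subunit SMC3 at -1.37 and the acetyltransferases ESCO1 at -1.28 and ESCO2 at -1.27. The 13 other kinetochore genes gave 2 lower and 2 higher calls. HJURP, the chaperone that deposits CENP-A, fell by 0.68 and the dynein adaptor SPDL1 by 0.89, while CENPV rose by 0.85.

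In 3 lists of cell cycle regulators the share called lower was near the 6.02% of all genes tested, so the counts are not a result about these lists. Of 17 mitotic entry regulators, 1 was called, LIN9 of the DREAM and MuvB complex at -0.93. The mitotic kinase PLK1 differed by 0.01 and the transcription factor FOXM1 by -0.25. Of 17 genes of the anaphase-promoting complex, ANAPC13 fell by 0.71 and ANAPC16 rose by 0.96. Of 20 DNA replication and G1/S genes, CCNE2 fell by 0.94 and GINS2 rose by 0.79. The medians of these 3 lists were -0.01, 0.01 and 0.08, beside -0.26 for the 44 members.

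**Figure D5:**
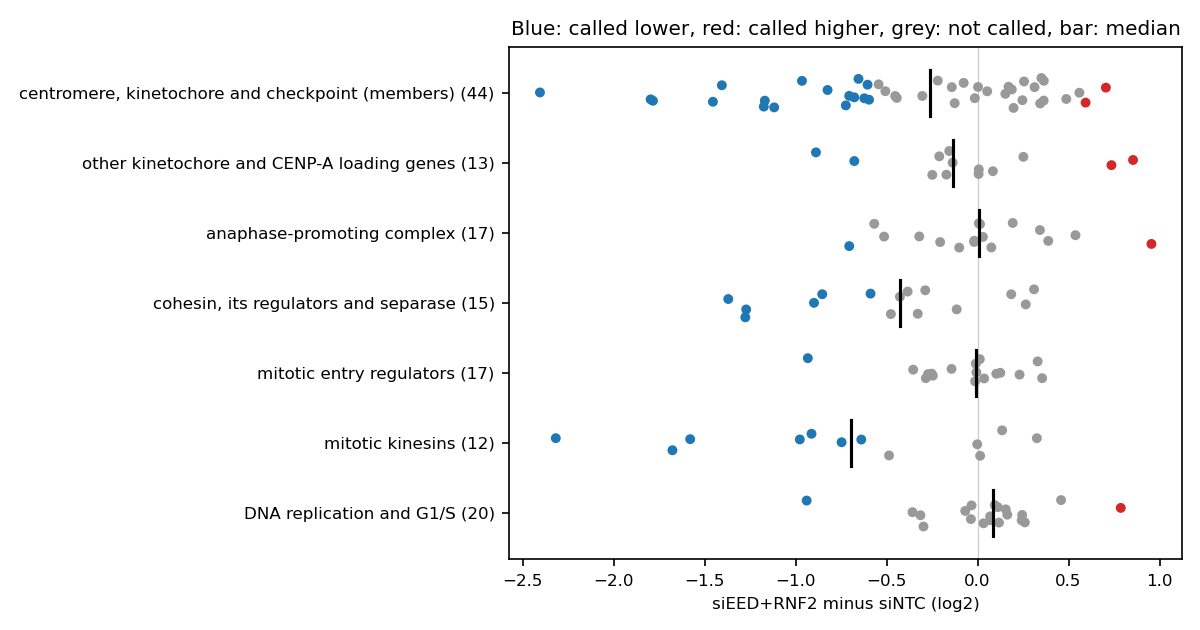
Log2 difference between siEED+RNF2 and siNTC (horizontal axis) for the 44 members and the genes of 6 other lists, with the number of measured genes in brackets. Each point is a gene, bars are list medians, and points are spread vertically only to separate them, with the medians of the mitotic kinesins (-0.69) and the cohesin list (-0.43) lowest.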

How the data were processed

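Log2 expression values of 12 arrays (33297 transcript clusters, columns not used: 0) were used as deposited. The authors' processing notes name GCRMA and Partek, with versions not given in the sources used here, and background correction and normalization preceded deposit, and the overall level of each array is set by them. Groups and replicate numbers came from the labels. Clusters were named through the platform annotation updated against RefSeq (GRCh38.p14), and the brightest cluster annotated to 1 gene stood for a gene.

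A mean per condition was fitted to the 12 arrays with limma 3.58.1 in R 4.3.3 (6 residual degrees of freedom), with Benjamini-Hochberg adjustment over 18417 genes. The fit was tested on simulated data. Calls needed an adjusted p under 0.05 and a fold of at least 1.5, limits taken from the values in the study's table of changed genes, since its methods name no test for the arrays. All fold changes are differences of normalized log2 values, and the number of arrays limits their precision. The members and the lists (other kinetochore genes, anaphase-promoting complex, cohesin, mitotic entry, mitotic kinesins, DNA replication, pluripotency and differentiation markers) were chosen with earlier results of these data known. Every member called in any comparison is named, array values are given for members with a called log2 change of at least 1 or called lower in siEED+RNF2 than in both single knockdowns, and up to 3 called genes are named for each other list. Array values of SKA1, CENPH, BUB1 and CDC20, and values of genes that were not called, were added after the values were seen. Of the 12 differentiation markers 1 was called in siEED+RNF2, the smooth muscle actin ACTG2 at -1.35. Protein length was not used here.

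Alternatives were fitting only the 2 groups compared, a block for the replicate number, a robust variance trend, quantile normalization, centring on the gene or cluster median, leaving out the dimmest 30% of genes, averaging the clusters of a gene, siSETD2 as reference, other limits, and leaving out each array. Plots used Python 3.11.15 with matplotlib 3.10.9.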

Additional observations from a re-analysis of the deposited data

Results flagged for a closer look

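The change in siEED+RNF2 differed from the sum of the single changes, by a limma test of the difference itself, for 6 members. Of all genes, 7.43% were called below the sum and 3.89% above it, so the count alone is not a result about the members. The test was added after the other values were known. The interaction on the log2 scale was -0.88 for CENPC, -0.74 for CENPH, -0.65 for NUF2, -0.78 for SKA1 and -0.61 for SGO1, and 0.74 for INCENP. The calls of NUF2 (-0.52) and SGO1 (-0.48) were lost when arrays were centred on the gene median, and that of SGO1 also without siEED+RNF2 replicate 2 (-0.58). Each condition had 2 arrays, so no condition was examined for a single array far from the others.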

How the results depend on the processing

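The direction of all 68 calls of members held under all 24 alternatives in which each was computed, but many of these could not change it. Other limits, fitting the compared groups alone, the replicate block, the variance trend and leaving out dim genes keep the same differences. So does leaving out an array of a condition that is not compared. With a fold of at least 2 and siSETD2 as reference left aside, 33 of the values fell below a threshold, concerning 14 of the calls. The labels do not say whether equal replicate numbers mark paired samples. Same-numbered arrays shared little deviation in these values, as 1 of 15 pairs of conditions had deviations correlated over 0.1 (-0.11 to 0.16). With the replicate block 17 members were lower and 2 higher in siEED+RNF2, with no call changed in any comparison. Centred on the gene median, which moved the all-gene median of siRNF2 to -0.17, there were 7 lower in siEED, 13 lower in siRNF2, 19 lower and 1 higher in siEED+RNF2, and 3 below and 6 above in the interaction. Centred on all clusters, 1 was higher in siEED. With siSETD2 as reference there were 2 lower and 0 higher in siWDR5, 1 lower in siEED, 1 higher in siRNF2, and 11 lower and 0 higher in siEED+RNF2.

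With no fold threshold the lower and higher counts were 19 and 8 in siWDR5, 19 and 10 in siEED, 22 and 12 in siRNF2, 13 and 13 in siSETD2, 17 and 4 for siEED+RNF2 against siEED, 17 and 3 against siRNF2, and 15 and 9 in the interaction, with 12 higher in siEED+RNF2 against siNTC. At a fold of at least 2 they were 1 and 0 in siWDR5, 1 and 0 in siRNF2, 8 and 0 in siEED+RNF2, and 0 and 0 in the interaction, with 1 lower in siEED, 0 in siSETD2, 4 for siEED+RNF2 against siEED and 2 against siRNF2. Leaving out 1 array at a time gave 0 to 2 higher in siEED (2 without siEED replicate 1, 1 without siNTC replicate 1), 1 to 2 higher in siWDR5 (1 without siWDR5 replicate 2 or siNTC replicate 2), 1 to 2 higher in siEED+RNF2 (1 without siNTC replicate 2) and 1 to 3 above in the interaction (3 without siRNF2 replicate 1). It gave correlations with gene span of -0.65 to -0.61 against siEED and -0.65 to -0.50 against siRNF2. The member counts in this section stand without shares over all genes and show only how calls depend on the settings. Many genes pass without a fold limit. At an unadjusted limma p under 0.05, 4465 of all 18417 genes were lower and 3524 higher in siWDR5, beside 20 and 9 members. In siEED+RNF2 against siNTC, 4669 genes were lower and 4380 higher, beside 23 and 13 members.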
